A study of Mus musculus with 12 samples.

Results

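The interferon regulatory factors (IRFs) Irf1, Irf2, Irf3, Irf4, Irf5, Irf7, Irf8 and Irf9 were followed in M1-activated bone marrow-derived macrophages (BM-Mɸs). The 8 genes were taken by name from a table of 22243 genes, in which they have 13 transcripts, and the values of the transcripts of each gene were added together. BM-Mɸs came from 6 ErbB4myeKO mice, in which LysMCre deletes a floxed ErbB4 receptor gene in myeloid cells, and from 6 ErbB4FF littermates that carry the same floxed gene without Cre. Each of 6 litters gave 1 mouse of each genotype, all on a C57Bl/6 background. The methods of the study give an age of 8 to 12 weeks for purchased C57Bl/6J mice and name none for these littermates. Marrow was grown in medium with M-CSF, then all 12 cultures received IFN-γ at 100 U/ml for 16 h and LPS at 100 ng/ml for 6 h, and no unstimulated cultures were analysed here. Levels are in TPM, the unit of transcript abundance that kallisto gives. It is scaled to transcript length, so that genes can be set beside each other as far as the table holds their transcripts.

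IRFs are transcription factors that share a DNA-binding domain at the amino terminus and bind interferon-stimulated response elements (ISREs) and related composite sites. Irf3, Irf5 and Irf7 wait in the cytoplasm until kinases downstream of pattern receptors phosphorylate them, whereas Irf9 is the subunit that guides the ISGF3 complex of type I interferon signaling to ISREs. Irf1 and Irf8 are induced by IFN-γ and drive much of the classical activation program of macrophages. Irf2 occupies many of the sites of Irf1 and is best known as its antagonist, and Irf4 is best known in lymphocytes, plasma cells and alternatively activated macrophages.

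The promoters of 3 members are shown because they hold a GAS element, the motif named for activation by IFN-γ, the cytokine given to all of these cultures. A GAS element (TTCNNNGAA), an ISRE core (GAAA, any 2 bases, GAAA) and an NF-kB site (GGGA, any 2 bases, TTCC) were searched on both strands in RefSeq windows of 250 bases before to 50 after each start (GRCm38.p6). All 8 genes matched the table, and Irf1, Irf8 and Irf9 have more than 1 window there. GAS matches lay in a window of Irf1, Irf2 and Irf8, whereas 8.30% of all 32851 windows of the same length hold one. The ISRE core was found in Irf2 alone among the members, against 3.44% of all windows. The NF-kB site in the form searched was found in none of them, against 1.47%. Other forms of the NF-kB site were not searched, so its absence is not shown. No window of Irf3, Irf4, Irf5, Irf7 or Irf9 held any of the 3 motifs in the forms searched. The 250 bases before the start are printed 5′ to 3′ on the plus strand for Irf1 (chr11:53769764-53770013), Irf2 (chr8:46739495-46739744) and Irf8 (chr8:120736108-120736357), with matches in capitals.
Irf1: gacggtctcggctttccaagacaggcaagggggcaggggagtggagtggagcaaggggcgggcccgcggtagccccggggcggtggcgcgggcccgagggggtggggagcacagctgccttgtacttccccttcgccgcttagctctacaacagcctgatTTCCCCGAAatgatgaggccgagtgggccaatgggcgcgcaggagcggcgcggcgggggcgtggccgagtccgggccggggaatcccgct
Irf2: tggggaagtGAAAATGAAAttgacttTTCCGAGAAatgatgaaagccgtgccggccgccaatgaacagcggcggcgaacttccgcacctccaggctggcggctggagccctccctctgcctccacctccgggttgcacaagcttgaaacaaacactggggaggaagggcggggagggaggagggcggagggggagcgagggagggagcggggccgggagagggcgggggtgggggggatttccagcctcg
Irf8: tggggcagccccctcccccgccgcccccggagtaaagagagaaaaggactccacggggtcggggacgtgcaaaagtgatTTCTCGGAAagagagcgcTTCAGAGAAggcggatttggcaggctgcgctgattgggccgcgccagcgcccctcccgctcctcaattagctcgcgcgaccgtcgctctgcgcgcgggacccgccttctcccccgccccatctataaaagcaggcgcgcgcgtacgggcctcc
The capitals mark TTCCCCGAA in Irf1, which begins 90 bases before the start. In Irf2 they mark GAAAATGAAA, the ISRE core at 241 bases, and TTCCGAGAA, a GAS element at 224 bases, which do not overlap. In Irf8 they mark the GAS elements TTCTCGGAA at 171 bases and TTCAGAGAA at 153 bases. These are matches of letters in a sequence and say nothing about occupancy in these cells.

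In the 12 libraries, 10214 to 12985 genes were above 0 TPM, and the depth behind each value is unknown because the table holds no counts. The transcripts in the table held 71.4% (ErbB4myeKO) and 74.7% (ErbB4FF) of all TPM in litter 5, against 59.0 to 64.9% in the other libraries. Erbb4, the targeted gene, was low in every library, between 0.280 and 0.852 TPM in those labelled ErbB4myeKO and between 0.372 and 0.716 TPM in those labelled ErbB4FF (exact permutation test over swaps within litters, two-sided p = 0.25). The value per gene does not single out the floxed exon and so does not check the deletion. Lyz2, the lysozyme gene whose locus carries LysMCre, averaged 5305 ± 1985 TPM (SD, n = 6) in libraries labelled ErbB4myeKO and 8277 ± 3445 TPM (SD, n = 6) in those labelled ErbB4FF. It was lower with Cre in 5 of 6 litters, and in litter 6 the order was the opposite, with 7997 TPM in the library labelled ErbB4myeKO and 2964 TPM in its littermate. The cause of the opposite order in litter 6 was not tested, and the mean ratios of the members and the list medians below are also given without that litter. All 8 macrophage markers were present, with Adgre1, which encodes F4/80, between 662 and 1060 TPM. Of other cell types, 6 of 10 neutrophil markers, 3 of 8 dendritic, 4 of 8 plasmacytoid dendritic, 6 of 12 B and plasma cell and 2 of 10 T and NK cell markers reached 1 TPM in some library, and none of 8 erythroid markers did. Siglech and Cd209a, which define plasmacytoid and monocyte-derived dendritic cells, were at 0 TPM throughout, but Xcr1 and Ccr7 of the dendritic list reached 29.0 and 104 TPM. Ly6g, which defines neutrophils, did not exceed 0.448 TPM. In RNA from whole cultures, fewer cells of a type and less RNA per cell cannot be told apart.

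By the listed values, Irf8, Irf7 and Irf1 were among the most abundant transcripts of these cells, Irf5 was high and Irf2 and Irf3 were intermediate. Irf9 was listed between 0 and 10.03 TPM and Irf4 under 1 TPM. Mean levels in ErbB4FF libraries were 844 ± 315 TPM for Irf8, 806 ± 208 TPM for Irf7, 509 ± 137 TPM for Irf1 and 224 ± 25.7 TPM for Irf5 (SD, n = 6). Those of Irf2 and Irf3 were 42.3 ± 14.6 TPM and 17.0 ± 4.17 TPM (SD, n = 6). Of the annotated coding transcripts, the table holds 2 of 4 for Irf8, 1 of 4 for Irf7 and 2 of 7 for Irf1. It holds 2 of 5 for Irf5, 1 of 6 for Irf2 and 3 of 7 for Irf3, and the levels of the others are not known here. Among the 8780 genes that averaged 1 TPM or more, the level of Irf8 stood at percentile 98.7, that of Irf7 at 98.5, that of Irf1 at 97.4, that of Irf5 at 94.6, that of Irf2 at 80.1 and that of Irf3 at 63.7. The order of neighbours was not equally firm: Irf8 was above Irf7 in 8 of 12 libraries and Irf7 above Irf1 in 9 of 12. Irf8 was below Irf1 in both libraries of litter 5 and above it in the others. In litter 5 these 2 genes stood at 518 and 624 TPM in the ErbB4myeKO library and at 483 and 587 TPM in the ErbB4FF library. Irf1 was above Irf5 in all 12 libraries, although their ranges over ErbB4FF libraries overlapped. Irf5 was above Irf2 in all 12 with no overlap between those ranges, and Irf2 was above Irf3 in 11 of 12, the exception being the ErbB4FF library of litter 5.

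**Figure D1:**
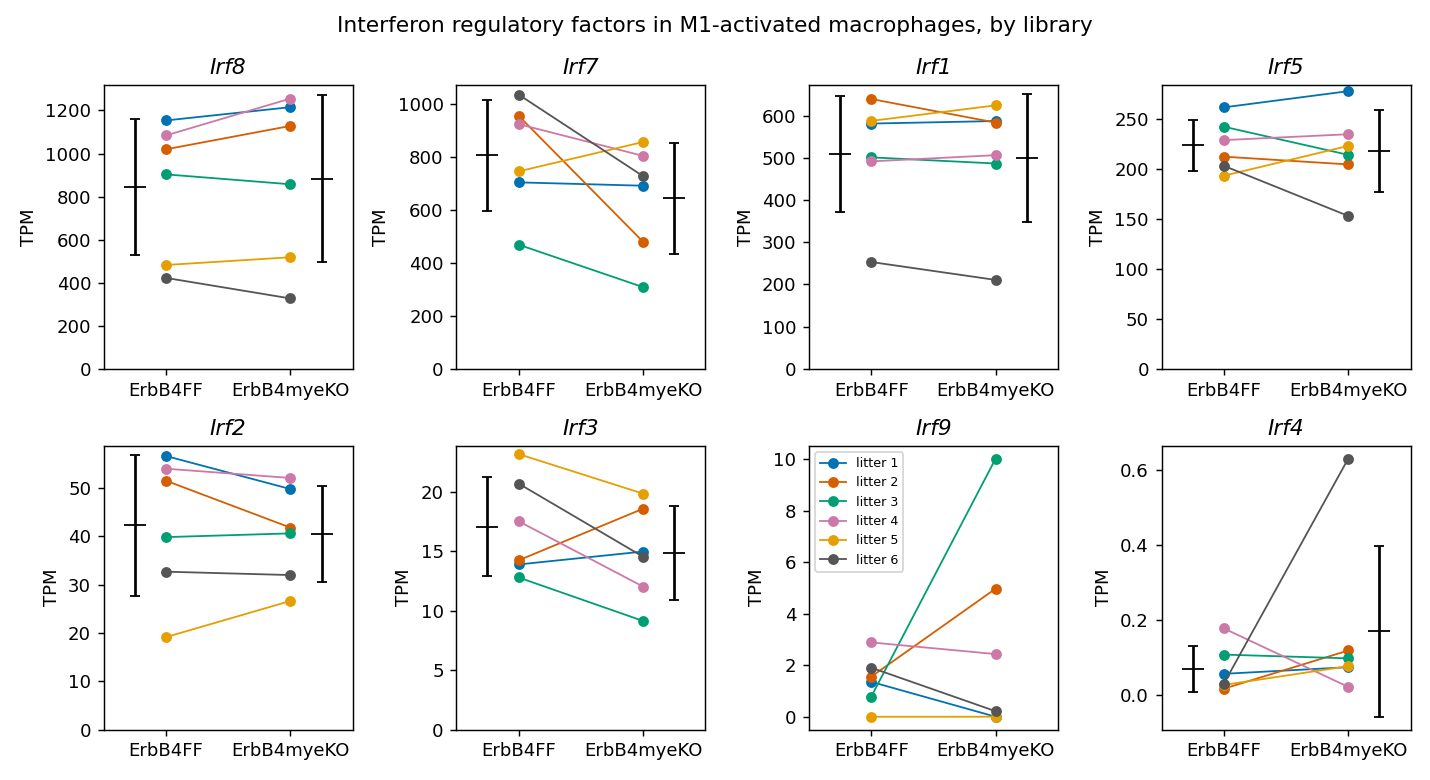
TPM of each interferon regulatory factor (linear y axis, a scale of its own in each panel) in ErbB4FF and ErbB4myeKO libraries, with a line joining the 2 littermates of each of 6 litters. Bars beside the points are mean ± SD (n = 6) and are left out for Irf9, which is listed at 0 in 2 libraries. The groups overlap for all 8 genes, and lines run both up and down in each panel.

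No member passed the test of genotype. The values were compared on the scale log2(TPM + 0.5) with limma, with litter as a block, over the 8780 genes tested, of which 0 (0%) had a Benjamini-Hochberg adjusted p under 0.05 and 721 (8.21%) an unadjusted p under 0.05. Irf4 was under the filter of 1 TPM, so 7 of 8 members were tested. Of these, 1 had an unadjusted p under 0.05, namely Irf7, which was lower in ErbB4myeKO libraries, as were 4.38% of all genes at that threshold. Another 3.83% of all genes were higher at that threshold, and none of the members. By the sign of the mean log2 ratio 5 of 7 members were lower in ErbB4myeKO libraries, against 50.2% of all genes. Without litter 6 that was 4 of 7, against 51.5% of the 8693 genes then tested, and no member had an unadjusted p under 0.05. The ranges of the genotypes overlapped for all 8 members, and 4 of 8780 genes (0.0456%) had ranges that did not.

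Irf7 (ENSMUSG00000025498, chr7:141262706-141266481, minus strand, GRCm38), the interferon-induced member that amplifies type I interferon production, had the mean log2 ratio farthest from 0 of the members tested. That of Irf9 was farther from 0 without litter 1, 3 or 6 and without litters 5 and 6 together. Without litter 2 that of Irf3 was farther from 0, at -0.32 against -0.23 for Irf7. In libraries labelled ErbB4myeKO the level of Irf7 was 309 TPM at the lowest, 710 TPM at the median and 857 TPM at the highest. In ErbB4FF libraries the lowest, median and highest levels were 470, 836 and 1037 TPM, and the means were 645 ± 210 TPM with Cre and 806 ± 208 TPM without (SD, n = 6). The ErbB4myeKO library was lower in 5 of 6 litters, a pattern that 14.3% of all genes tested share, and litter 3 gave the lowest level of both genotypes.

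The log2 ratio of Irf7 within litters was -0.99 in litter 2, -0.60 in litter 3, -0.51 in litter 6, -0.20 in litter 4, -0.03 in litter 1 and 0.20 in litter 5. The littermates of litter 2 were the least alike of the 6 pairs over all genes (r = 0.0955 after centring, against 0.250 to 0.762 in the others), and each was closer to a library of another litter. Litters 2, 3 and 6 carried most of the mean of -0.36 ± 0.43 (SD, n = 6 litters), and litters 1 and 4 differed little between littermates. The limma estimate of -0.36 had a standard error of 0.15, a 95% interval from -0.70 to -0.01, an unadjusted p of 0.0474 and an adjusted p of 0.603. The exact permutation test over the 64 swaps of genotype within litters gave a two-sided p of 0.0938, where 0.0312 is the smallest it can give. The ratio was -0.23 without litter 2, -0.32 without litter 6 and -0.47 without litter 5, and over all alternatives the adjusted p of limma lay between 0.499 and 1.00. The unadjusted limma p lay between 0.0143 and 0.208 and was not under 0.05 in 8 of 15 alternatives, among them those without litter 2, 3, 4 or 6. Without the block the standard error was 0.27, the unadjusted p 0.208 and the adjusted p 1.00.

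Irf3 (ENSMUSG00000003184, chr7:44997648-45002848, plus strand), the constitutive factor that TBK1 activates downstream of TRIF, MAVS and STING, was far less abundant than Irf7. Its lowest, median and highest levels were 9.14, 14.8 and 19.8 TPM in ErbB4myeKO libraries and 12.8, 15.9 and 23.2 TPM in ErbB4FF libraries. The ErbB4myeKO library was lower in litters 3, 4, 5 and 6 and higher in litters 1 and 2, and the genotypes overlapped over most of their range. The mean log2 ratio was -0.20 ± 0.37 (SD, n = 6), with an adjusted p of 0.668 by limma and a p of 0.219 by exact permutation. It was -0.15 without litter 6, and without litter 2 it was -0.32 with an unadjusted limma p of 0.0321.

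Set against each other within a library, the level of Irf7 was 25.9 to 67.2 times that of Irf3. On the log2(TPM + 0.5) scale that ratio was 5.36 ± 0.47 in ErbB4myeKO and 5.51 ± 0.38 in ErbB4FF libraries (SD, n = 6). Its difference within litters, -0.15 ± 0.64 (SD, n = 6), was smaller than its spread and negative in 4 of 6 litters. Litter 2 alone gave -1.37, and the mean was 0.09 ± 0.26 without it (SD, n = 5) and -0.18 without litter 6.

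Irf5 (ENSMUSG00000029771, chr6:29526625-29541871, plus strand), which MyD88 signaling activates and which drives inflammatory cytokine genes, varied least between litters of the 7 members tested. It ranged from 153 TPM over a median of 219 TPM to 278 TPM in ErbB4myeKO libraries and from 193 TPM over 221 TPM to 262 TPM in ErbB4FF libraries. The ErbB4myeKO library of litter 6 was the lowest of the 12 and that of litter 1 the highest. The SD of its litter means was 0.20 on the log2 scale, at percentile 14.0 of all genes tested, for which the median SD was 0.41. Its mean log2 ratio was -0.05 ± 0.22 (SD, n = 6), with 3 litters in each direction and an adjusted p of 0.864 by limma, and the sign turned to 0.02 without litter 6.

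**Figure D2:**
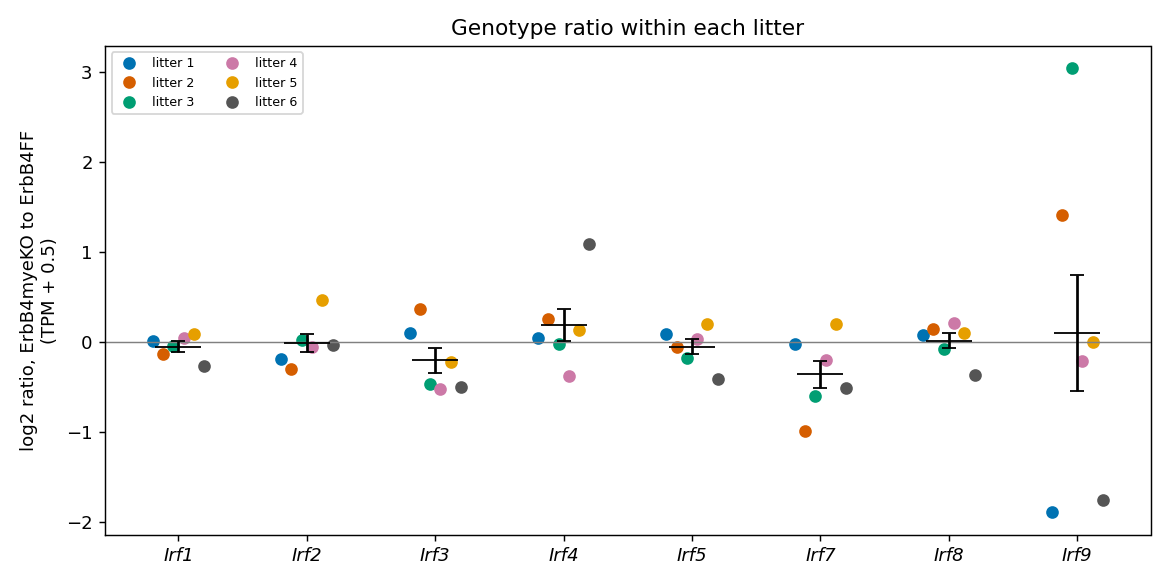
Log2 ratio of ErbB4myeKO to ErbB4FF within each litter (y axis, TPM + 0.5), 1 point per litter, for each interferon regulatory factor. Black bars are the mean with its standard error from limma (for Irf4 from the fit without a filter). Irf7 has 5 of 6 points below 0, and the points of Irf9 run from -1.89 to 3.05.

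Irf1 (ENSMUSG00000018899, chr11:53770014-53778374, plus strand), the IFN-γ-induced activator, was near-equal between littermates in 5 of 6 litters. Its lowest, median and highest levels were 211, 545 and 624 TPM in ErbB4myeKO libraries and 253, 541 and 639 TPM in ErbB4FF libraries. The lowest library of each genotype was that of litter 6, and the other 10 libraries lay at 486 TPM or above. The mean log2 ratio was -0.05 ± 0.13 (SD, n = 6), with 3 litters in each direction, a 95% interval from -0.19 to 0.10 and an adjusted p of 0.819 by limma. Without litter 6 it was -0.01.

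Irf2 (ENSMUSG00000031627, chr8:46739732-46847458, plus strand), its antagonist, was lower than Irf1 in every library. It ranged from 26.6 TPM over a median of 41.2 TPM to 52.1 TPM in ErbB4myeKO libraries and from 19.2 TPM over 45.7 TPM to 56.6 TPM in ErbB4FF libraries. Both libraries of litters 5 and 6 were at 32.7 TPM or below, and all others were at 39.8 TPM or above. The mean log2 ratio was -0.01 ± 0.26 (SD, n = 6), with an adjusted p of 0.976 by limma, and its sign turned without litter 1 or litter 2. It was -0.01 without litter 6.

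The level of Irf1 over that of Irf2 ran from 6.59-fold in the ErbB4myeKO library of litter 6 to 30.7-fold in the ErbB4FF library of litter 5. It differed far more between litters than between littermates: the ratio on the log2(TPM + 0.5) scale was 3.57 ± 0.60 in ErbB4myeKO and 3.60 ± 0.69 in ErbB4FF libraries (SD, n = 6), and its difference within litters was -0.04 ± 0.23 (SD, n = 6), which turned to 0.03 without litter 5 and to 0.0023 without litter 6.

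Irf8 (ENSMUSG00000041515, chr8:120736358-120756694, plus strand), which partners PU.1 and sets monocyte and macrophage identity, had the highest mean level in ErbB4FF libraries and varied most between litters among the 6 most abundant members. It was above Irf7 in only 8 of 12 libraries and below Irf1 in both libraries of litter 5. Its lowest, median and highest levels were 327, 993 and 1255 TPM in ErbB4myeKO libraries and 423, 961 and 1153 TPM in ErbB4FF libraries. Both littermates of litters 5 and 6 were at 518 TPM or below, and the other 8 libraries were at 857 TPM or above. The SD of its litter means was 0.71 on the log2 scale, at percentile 78.4 of all genes tested. The ratio between genotypes was small beside this: the mean log2 ratio was 0.02 ± 0.21 (SD, n = 6), with a 95% interval from -0.18 to 0.21 and an adjusted p of 0.959 by limma. Its sign turned without litter 2, 4 or 5, and it was 0.09 without litter 6.

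Litters 5 and 6 also held the most neutrophil marker transcripts. The 10 markers summed to 215 and 375 TPM in the ErbB4myeKO libraries and to 186 and 155 TPM in the ErbB4FF libraries of litters 5 and 6, against 41.3 to 74.5 TPM in the other 8 libraries. Most of each sum was S100a8 and S100a9, calprotectin genes that activated macrophages also transcribe. Without these the sum was 14.6 to 31.7 TPM in the libraries of litters 5 and 6 and 3.39 to 8.92 TPM in the others. The granule gene Ngp reached 18.4 TPM and Camp 10.5 TPM, both in the ErbB4myeKO library of litter 5, while Ly6g, Elane and Mpo did not exceed 0.549 TPM. Mmp8 of the same list went the other way in litter 5. It was lowest there, at 0.820 TPM in the ErbB4myeKO and 0.552 TPM in the ErbB4FF library. Its highest value, 3.84 TPM, was in the ErbB4myeKO library of litter 6. The litter letter that the labels call a batch is the same for both littermates, so litter and batch cannot be told apart, and the part of these marker differences in the levels of Irf8 and Irf2 was not tested.

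**Figure D3:**
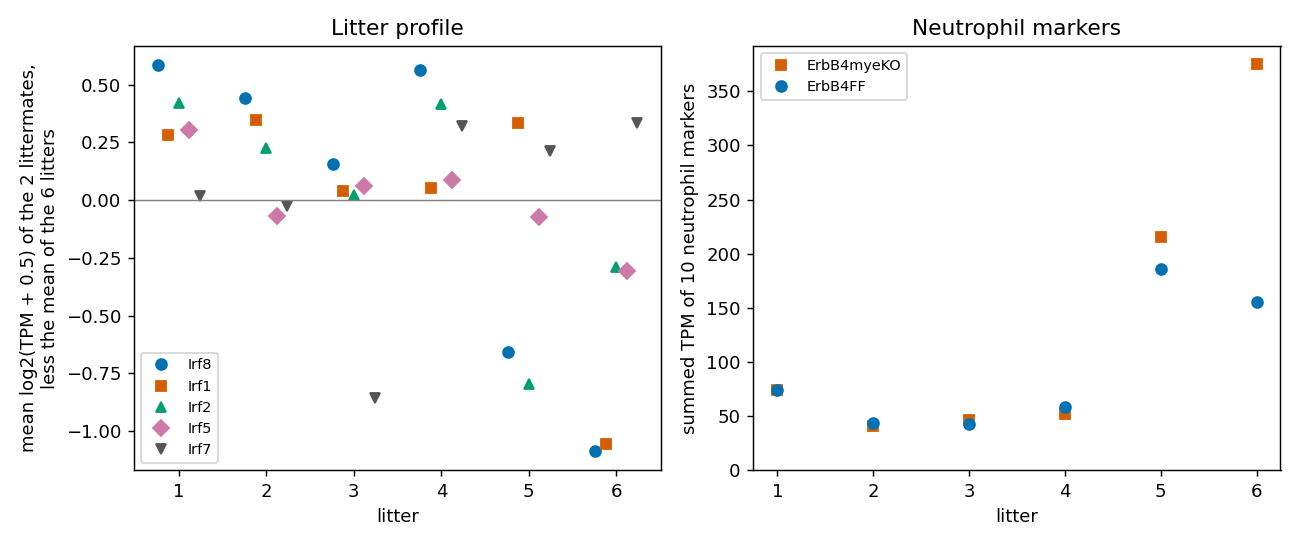
Left, mean log2(TPM + 0.5) of the 2 littermates less the mean over the 6 litters (y axis) for 5 interferon regulatory factors, by litter. Right, summed TPM of 10 neutrophil markers in each library. Irf8 and Irf2 are lowest in litters 5 and 6, Irf1 in litter 6 and Irf7 in litter 3, and the marker sum is highest in litters 5 and 6.

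Irf9 (ENSMUSG00000002325, chr14:55603571-55610030, plus strand), the DNA-binding subunit of the ISGF3 complex, was listed at low values. In the libraries labelled ErbB4myeKO of litters 1 to 6 it stood at 0, 4.98, 10.03, 2.44, 0.000433 and 0.214 TPM. In the ErbB4FF libraries of litters 1 to 6 it stood at 1.36, 1.56, 0.776, 2.89, 0 and 1.91 TPM. The highest value was in an ErbB4myeKO library, and each genotype had 1 library at 0 TPM. The table holds 1 of 4 annotated coding transcripts of Irf9, and 99.0% of its 31-base words occur in other transcripts of the gene, so that the listed value depends on how the reads were divided among isoforms. The log2 ratio within litters spanned -1.89 to 3.05, its mean was 0.10 ± 1.89 (SD, n = 6) and the adjusted p by limma was 0.966. The sign of this mean turned with a pseudocount of 0.1 and without litter 2 or litter 3, and it was 0.47 without litter 6. The level of the whole gene was not analysed here.

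Irf4 (ENSMUSG00000021356, chr13:30749226-30766976, plus strand) was listed below the filter in both genotypes. The table holds 1 of 3 annotated coding transcripts of Irf4, and 99.4% of its 31-base words occur in other transcripts of the gene. The listed value thus depends on how the reads were divided among isoforms, and the level of the whole gene was not analysed. Its lowest, median and highest levels were 0.022, 0.088 and 0.630 TPM in ErbB4myeKO libraries and 0.017, 0.044 and 0.178 TPM in ErbB4FF libraries. The value of 0.630 TPM came from the ErbB4myeKO library of litter 6, and the other 11 libraries were at 0.178 TPM or below. In that library Jchain and Mzb1, which plasma cells express, were also highest of the 12, at 22.6 and 2.98 TPM, whereas Sdc1, Xbp1 and Prdm1 of the same list were higher in other libraries, and the 12 B and plasma cell markers summed to 133 TPM against 71.1 to 124 TPM in the others. Ms4a1 and Pax5, which define B cells, were at 0.161 TPM or below in every library, and the part of other cells in the value of Irf4 was not tested. The mean log2 ratio was 0.19 ± 0.49 (SD, n = 6) with p = 0.469 by exact permutation, and it was 0.01 without litter 6. With levels this low the value was set in large part by the pseudocount, and it was 0.46 with 0.1 and 0.11 with 1 in place of 0.5.

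Where the table holds more than 1 transcript of a member, 1 of them carried most of the level in every library. For Irf1, ENSMUST00000108920 carried 79.8 to 100% of the gene's TPM, and ENSMUST00000019043 the rest. The latter stood at 126 TPM in the ErbB4myeKO and 80.0 TPM in the ErbB4FF library of litter 5, at 0 TPM in both libraries of litter 6 and at 2.92 to 23.8 TPM in the others. Both littermates thus shared the isoform pattern that set their litter apart.

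For Irf8, ENSMUST00000047737 carried 91.4 to 96.9%, and ENSMUST00000162001 3.09 to 8.56%. For Irf5, ENSMUST00000163511 was at 0 TPM in 3 libraries, all labelled ErbB4myeKO (litters 2, 3 and 5), whereas the highest value, 12.4 TPM, was also in an ErbB4myeKO library (litter 4). The ErbB4myeKO library was the higher in 2 of 6 litters, with a p of 0.188 by exact permutation. Of its 31-base words 90.9% occur in the other deposited Irf5 transcript. A minor Irf3 transcript, ENSMUST00000209066, was lower in the ErbB4myeKO library in 5 of 6 litters and at 0 TPM in both libraries of the other. Its mean log2 ratio was -1.003 ± 0.85 (SD, n = 6), with p = 0.0625 by exact permutation, the smallest this test can give with 1 litter tied, and it did not exceed 3.28 TPM. Without litter 6 the ratio was -1.11 ± 0.91 (SD, n = 5). Of the 31-base words of this transcript 95.9% occur in the other Irf3 transcripts of the table, so its share is uncertain.

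**Figure D4:**
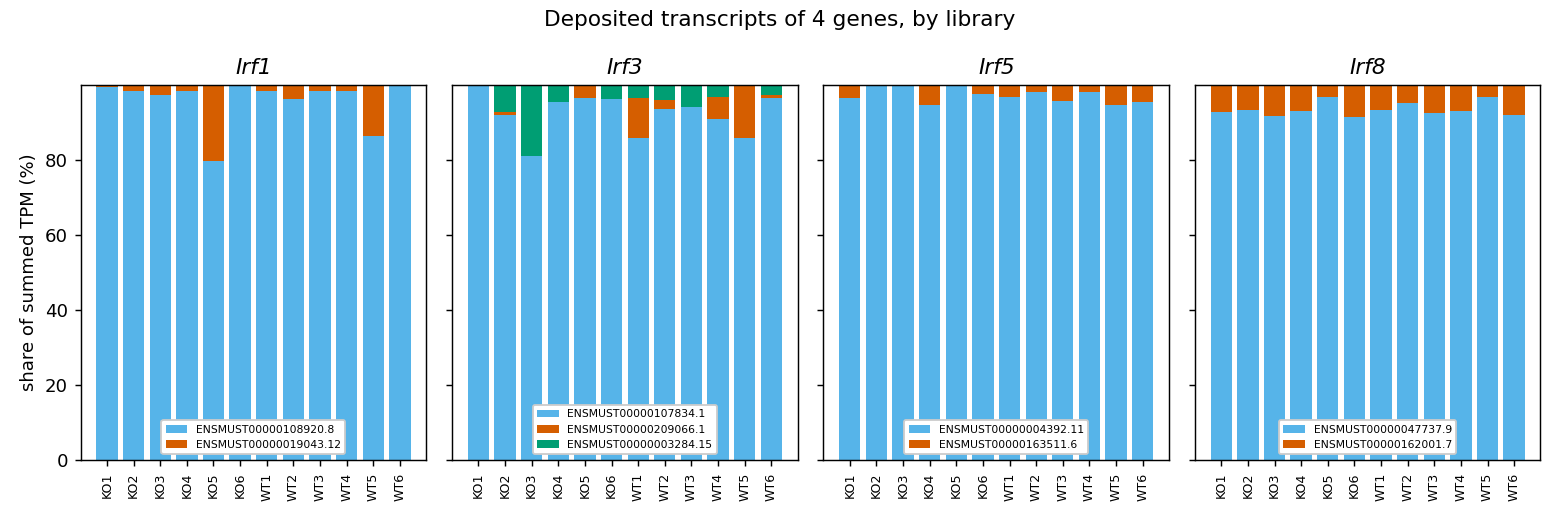
Share of the summed TPM of a gene (y axis, %) carried by each deposited transcript in the 12 libraries, for the 4 members with more than 1 transcript (KO, ErbB4myeKO; WT, ErbB4FF; numbers are litters). The minor Irf1 transcript reaches 20.2% in KO5 and is absent in KO6 and WT6.

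The members did not share 1 profile over the 12 libraries. Pearson correlations of log2(TPM + 0.5), given as a description over libraries that share litters, were 0.81 for Irf2 with Irf8, 0.77 for Irf5 with Irf8, 0.68 for Irf1 with Irf8 and 0.65 for Irf1 with Irf5. For Irf7 r was 0.59 with Irf3, which ranked 1402 among the genes most like it, -0.16 with Irf1 and -0.23 with Irf8. Irf2 and Irf3 ran in opposite directions (r = -0.57). Among all genes tested, those most like Irf7 were Tpx2 (r = 0.979), Phf11a (r = 0.976) and Epsti1 (r = 0.972), and Epsti1 is an interferon-induced gene. Those most like Irf8 were Gtpbp1 (r = 0.971), Gpr132 (r = 0.969) and Ly6a (r = 0.967), of which Ly6a encodes the surface protein Sca-1. Those most like Irf2 were Irgm1 (r = 0.961), an immunity-related GTPase, Adap2 (r = 0.959) and Etnk1 (r = 0.957).

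Irf1 was followed most closely by Pold3 (r = 0.929), a DNA polymerase delta subunit, Csrnp1 (r = 0.912) and Gramd3 (r = 0.905). Irf5 was followed by Otud1 (r = 0.908), a deubiquitinase, Hsd17b11 (r = 0.884) and H2-K1 (r = 0.839), a class I MHC heavy chain. Irf3 was followed by Dnpep (r = 0.929), Arl6ip4 (r = 0.919) and Cars2 (r = 0.912), and Irf9 by Kansl1 (r = 0.915), Krit1 (r = 0.890) and Cspp1 (r = 0.875). For Irf4 the 3 genes were the immunoglobulin variable genes Ighv1-15 (r = 0.955), Igkv4-68 (r = 0.925) and Ighv1-66 (r = 0.925), but this likeness rested on 1 library. Igkv4-68 and Ighv1-66 were above 0 TPM only in the ErbB4myeKO library of litter 6, at 20.6 and 22.5 TPM, and Ighv1-15 was at 0 TPM in 10 of the other 11. Without that library r was 0.665 for Ighv1-15 and could not be computed for the other 2.

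Genes that act with or under the IRFs were counted in 5 lists, and none of their members passed the adjusted threshold, with 0.603 as the smallest adjusted p by limma. The kinases and adaptors that activate IRFs were centred near 0. All 15 were tested, none had an unadjusted p under 0.05, 8 lay above 0 and 7 below, and the median log2 ratio was 0.02 (-0.00031 without litter 6), beside -0.00068 over all genes tested. Myd88, the adaptor of most Toll-like receptors, was at 173 ± 22.2 TPM in ErbB4myeKO and 186 ± 15.2 TPM in ErbB4FF libraries (SD, n = 6). Tmem173, which encodes STING, had a log2 ratio of -0.26, Traf6, the ubiquitin ligase downstream of MyD88, one of 0.18, and Ikbkb, the IκB kinase that activates Irf5, one of 0.10.

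Of 9 tested DNA-binding partners and coactivators, 1 had an unadjusted p under 0.05 and was lower, where 4.38% of all genes were, 7 lay below 0, where 50.2% did, and the median log2 ratio was -0.18 (-0.16 without litter 6). That gene was Stat2, the partner of Irf9 in ISGF3, at 130 ± 13.7 TPM in ErbB4myeKO and 149 ± 24.2 TPM in ErbB4FF libraries (SD, n = 6) and lower in 5 of 6 litters, with an unadjusted limma p of 0.0455 that became 0.111 without litter 6. Batf3, an AP-1 factor that works with Irf8, was low, at 2.99 ± 3.90 TPM in ErbB4myeKO and 3.82 ± 4.39 TPM in ErbB4FF libraries (SD, n = 6). It was lower in 6 of 6 litters with a log2 ratio of -0.43 and an unadjusted limma p of 0.0529, which were -0.33 and 0.149 without litter 6. Crebbp, a histone acetyltransferase, and Rela, an NF-kB subunit, had ratios of 0.11 and 0.03. Among 8 tested co-repressors and turnover factors, 1 was lower at an unadjusted p under 0.05, again beside 4.38% of all genes, 6 lay below 0, beside 50.2%, and the median was -0.14 (-0.10 without litter 6 and -0.07 without litter 3). That gene was Irf2bpl, a relative of the Irf2 co-repressors, with a log2 ratio of -0.60 and an unadjusted limma p of 0.0361, which were -0.75 and 0.0171 without litter 6. Its level was low, at 2.34 ± 1.70 TPM in ErbB4myeKO and 3.69 ± 1.93 TPM in ErbB4FF libraries (SD, n = 6). Usp18, which removes ISG15 from proteins, had a ratio of -0.21, Stub1, a ubiquitin ligase, one of 0.13, and Irf2bp1, a co-repressor of Irf2, one of 0.07.

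The ISRE target genes stood lower in libraries labelled ErbB4myeKO without any of them passing the adjusted threshold. All 19 tested genes of 20 had a log2 ratio below 0, where 50.2% of all genes did, with a median of -0.26 and a range from -0.49 to -0.04. Of these, 6 had an unadjusted p under 0.05, where 4.38% of all genes were lower at that threshold. In 13 of the 19 the ErbB4myeKO library was lower in at least 5 of 6 litters, where 14.3% of all genes were. Without litter 6 all 19 stayed below 0, where 51.5% of genes lay, but 1 had an unadjusted p under 0.05, where 3.17% of genes were lower. In 14 of them the ErbB4myeKO library was then lower in at least 4 of 5 litters, where 21.9% of genes were. Genes of this list respond to the same signal, so they are not independent of one another.

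Cxcl10, a T cell chemokine, was at 2221 ± 647 TPM in ErbB4myeKO and 2484 ± 621 TPM in ErbB4FF libraries (SD, n = 6), with a log2 ratio of -0.18 that was negative in 6 of 6 litters and an unadjusted limma p of 0.0214. Oas1a, an antiviral oligoadenylate synthetase, had a ratio of -0.26, negative in 5 of 6 litters, and an unadjusted limma p of 0.0245. Without litter 6 these ratios were -0.13 and -0.25, with unadjusted limma p of 0.0611 and 0.0604. By litter, the median ratio of the 19 genes was -0.65 in litter 2, -0.44 in litter 6, -0.18 in litter 4, -0.10 in litter 1, -0.05 in litter 3 and -0.01 in litter 5. Litters 2, 6, 4, 1 and 5 came in the same order for the ratio of Irf7, and litter 3, in which Irf7 had a ratio of -0.60, did not keep to it. The median was -0.18 without litter 2, -0.23 without litter 6 and -0.30 with litters 5 and 6 left out.

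Targets best known for Irf1 and Irf8 lay on both sides of 0, more of them below it. Of 22 genes tested, 8 lay above 0 and 14 below, where 50.2% of all genes lay below, and the median log2 ratio was -0.04 (-0.02 without litter 6). In each direction 2 had an unadjusted p under 0.05, where 4.38% of all genes were lower and 3.83% higher. Without litter 6 it was 1 in each direction, where 3.17% of genes were lower and 2.65% higher. The higher gene was then neither Il12b nor Il12a. In 8 of the 22 the ErbB4myeKO library was lower in at least 5 of 6 litters, where 14.3% of all genes were, and without litter 6 in 9 of 22 it was lower in at least 4 of 5, where 21.9% were. The immunoproteasome subunits Psmb8 and Psmb9 had ratios of -0.22 and -0.20, lower in 5 and 6 of 6 litters, with unadjusted limma p of 0.0147 and 0.0345, which became 0.0456 and 0.101 without litter 6. Il12b and Il12a, the p40 and p35 subunits of interleukin-12, had ratios of 1.19 ± 1.39 and 2.24 ± 2.79 (SD, n = 6), with unadjusted limma p of 0.0349 and 0.0449, which became 0.0543 and 0.116 without litter 6. The level of Il12b was higher in the ErbB4myeKO library in 6 of 6 litters and that of Il12a lower in 1 of them.

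**Figure D5:**
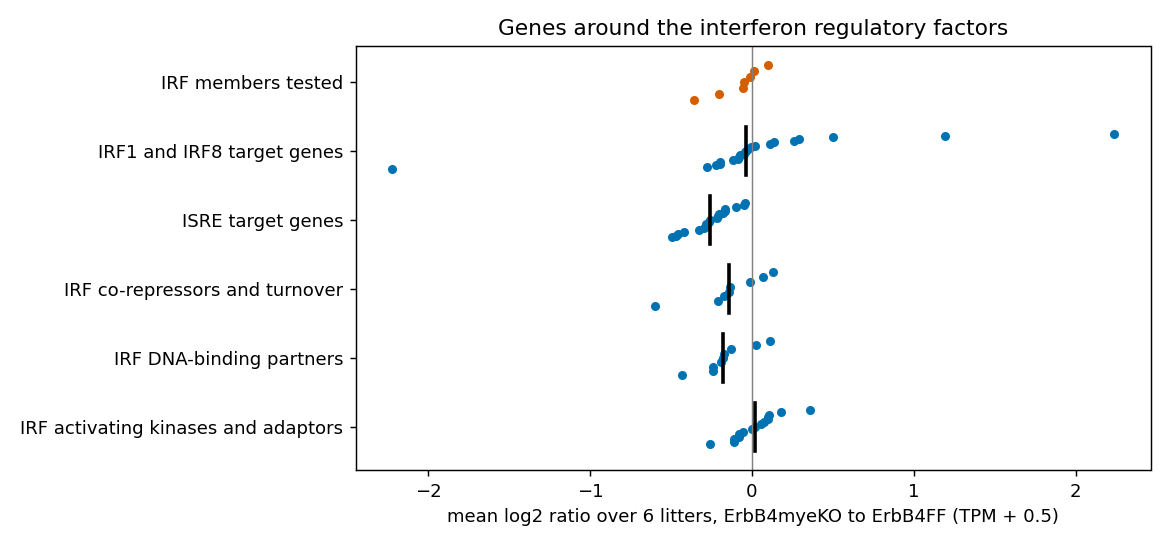
Mean log2 ratio over 6 litters of ErbB4myeKO to ErbB4FF (x axis, TPM + 0.5), 1 point per gene, for the 7 tested interferon regulatory factors (orange) and 5 lists of genes around them (blue; vertical bars are medians). All 19 ISRE targets lie below 0, with a median of -0.26, and the kinases and adaptors are centred at 0.02.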

How the data were processed

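Polyadenylated RNA of 12 cultures was sequenced as single-end 75-base reads. The authors used kallisto for pseudoalignment, and the deposited values are TPM per transcript for principal isoforms only. The processing notes name mm10, CASAVA and sleuth without versions. The deposited table also holds columns of the authors' own comparison (p-values, q-values, sleuth statistics and a log2 ratio), which were not used. Genotype and litter came from the labels. Sex is not on the labels and was no covariate. Littermates were paired by litter, as the labels state, and correlated at r = 0.0955 to 0.762 after each gene was centred.

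Repeated lines were dropped (29213 lines, 28808 transcripts) and TPM summed per gene. For genes averaging 1 TPM or more, log2(TPM + 0.5) was modelled by limma 3.58.1 under R 4.3.3 (litter block, eBayes with trend, Benjamini-Hochberg). Fold changes on this scale understate those of low genes. Exact two-sided permutation swapped genotypes within litters. Python 3.11.15 and GENCODE M21 served for the rest. On simulated data with 200 of 8780 genes changed, the fit with the litter block recovered 62% of log2 changes of 1 and 91% of those of 2, with 12 false calls of 165. No smaller changes were simulated, so the recovery of ratios as small as those of the members tested is unknown.

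The members and lists were chosen with earlier results of these data known. Named were all members, per member the 3 tested genes most like it by r, per list the 2 genes of smallest p in each direction, and Erbb4 and Lyz2. Alternatives changed the block, pseudocount, filter, scaling, trend, transcript choice and litters. The planned comparison of member proteins was not made here.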

Additional observations from a re-analysis of the deposited data

Results flagged for a closer look

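In 24 groups of 6 values, the 8 members' TPM in each genotype and their log2 ratios within litters, the gap of the most extreme value to its neighbour was set against the group's range, with 0.625 as the critical value. Chance marks about 1 in 20 such groups, and 2 of 24 were marked here. The first was Irf1 in the ErbB4myeKO library of litter 6, at 211 TPM, with a gap of 0.667 of the range. The littermate of that library was also the lowest of its own group, at 253 TPM. The second was Irf4 in the same ErbB4myeKO library, at 0.630 TPM, with a gap of 0.841 of the range.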

How the results depend on the processing

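No gene had an adjusted p under 0.05 by limma in 14 of 15 alternatives, and leaving out 1 litter gave 0 to 1 such genes (1 without litter 3). The 721 genes at an unadjusted p under 0.05 became 75 with no replicate block, that is, without the pairing of littermates, and 413 to 864 with 1 litter left out (413 without litter 2, 458 without litter 4). Without the block Irf7 had an unadjusted p of 0.208, and none of the 12 unadjusted calls in the 5 lists was kept (1 partner, 1 co-repressor, 6 ISRE targets, 4 Irf1 and Irf8 targets). No member passed the adjusted threshold in any alternative. With 1 litter left out the log2 ratio reached both signs for Irf2 (-0.11 to 0.045), Irf5 (-0.10 to 0.020), Irf8 (-0.024 to 0.092) and Irf9 (-0.49 to 0.50), and it ran from -0.08 to -0.01 for Irf1, from -0.32 to -0.14 for Irf3, from 0.01 to 0.30 for Irf4 and from -0.47 to -0.23 for Irf7. The ratio of Irf9 was -0.27 with a pseudocount of 0.1, and Irf9 had no value with a mean of at least 5 TPM. Leaving out litters 5 and 6, chosen after seeing the data, gave -0.024 for Irf4 and -0.46 for Irf7. The other 272 values kept their direction and side of the threshold or moved within the spread, with the exception that the median of kinases and adaptors, without a test, crossed 0 (-0.06 to 0.03). TPM keeps no depth, so counting error is unknown, and levels of genes with few deposited isoforms depend on how reads were divided.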
